A study of Mus musculus with 62 samples.

Results

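The 10 genes described here encode the chaperones of the Hsp90 cycle: Hsp90aa1, Hsp90ab1, Hspa8, Hspa4, Hspa5, Dnaja1, Dnajb1, Stip1, Ptges3 and Fkbp4. They were picked by name as a functional family, with earlier results of these data known, and all 10 were found among the 11121 genes of the deposited count table. The table holds bulk RNA counts from the prefrontal cortex (PFC) and from a part of the ventral striatum, the nucleus accumbens (NAc), of male wild-type C57BL/6J mice aged 15 weeks. Unstressed control mice (CTR) gave 15 PFC and 16 NAc libraries. Mice exposed to multimodal chronic restraint stress (mCRS), a schedule of daily restraint under changing conditions, also gave 15 PFC and 16 NAc libraries. No mouse carried a transgene, and stressed and control animals were of the same strain, sex and age. The tissue was collected some days after the last restraint session, so the values describe the state after chronic stress and not the acute response. The labels do not say which PFC and NAc libraries came from the same mouse.

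Hsp90 is an abundant chaperone of the cytosol that binds proteins late in their folding, among them kinases and the receptors for glucocorticoids and mineralocorticoids. A client is first held by an Hsp70 with the help of a J-domain protein, is passed to Hsp90 through an adaptor, and is then matured with p23 and an immunophilin before release. In neurons the same chaperones also serve at synapses and in the turnover of damaged proteins. Part of this family is induced by heat shock factor when proteins unfold. Hspa5, also called BiP, is the Hsp70 of the endoplasmic reticulum (ER) lumen and not of the cytosol, and is described here as the ER counterpart of the other members.

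Libraries held between 945286 and 4857359 counts. Gene levels below are CPM, counts scaled to a common library size, with TMM normalization between libraries. Sums of cell type markers are CPM without TMM. The members' spread between libraries was larger than counting error. The standard deviation (SD) of log2 CPM within groups was 5.15 times the counting error for Dnajb1 and 12 times for Hsp90aa1. These were the lowest and the highest of the 10. This spread joins mouse and library preparation, which cannot be told apart. The tissue labels held for the groups: 8 cortical excitatory neuron markers summed to 3480 to 7430 CPM in the PFC and 549 to 2090 in the NAc, and 9 striatal projection neuron markers to 264 to 1270 CPM in the PFC. In the NAc the striatal sum was 550 CPM in CTR library 07 and at least 2780 in the other libraries. Choroid plexus markers summed to 25500 CPM in NAc mCRS library 10, against medians of 263 to 332 in the 4 groups. Results that rest on these 2 libraries are given with and without them. The PFC mCRS libraries detected 82.3% ± 6.22 (SD, n = 15) of the listed genes and the PFC CTR libraries 87.1% ± 4.42 (SD, n = 15), and mitochondrially encoded transcripts had a median share of 15.7% and 12% of counts. PFC results with these as alternatives are given below.

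None of the 10 chaperones passed the test between mCRS and CTR mice, in either region. The comparison asked whether chronic stress changed their transcript level. Genes were called at an adjusted p (Benjamini-Hochberg over all genes tested) below 0.05 by edgeR's quasi-likelihood test. In the PFC 0 of 10 members were called, where 0% of the 8916 genes tested were, and 1 of 10 had an unadjusted p below 0.05, where 3.50% of all genes did. In the NAc 0 of 10 were called, against 0.00986% of 10141 genes, and 0 of 10 had an unadjusted p below 0.05, against 2.04%. The median log2 fold change over the members was -0.03 in the PFC and -0.05 in the NAc, beside -0.01 over all genes in each. DESeq2 also called 0 of the 10 in each region. When the fit held the percentage of detected genes in each library as a covariate, 0 of 10 were called in the PFC, where Hsp90aa1 was at -0.023, Dnaja1 at 0.47 and Dnajb1 at 0.25, and with the mitochondrially encoded genes left out 0 of 10 were called.

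**Figure D1:**
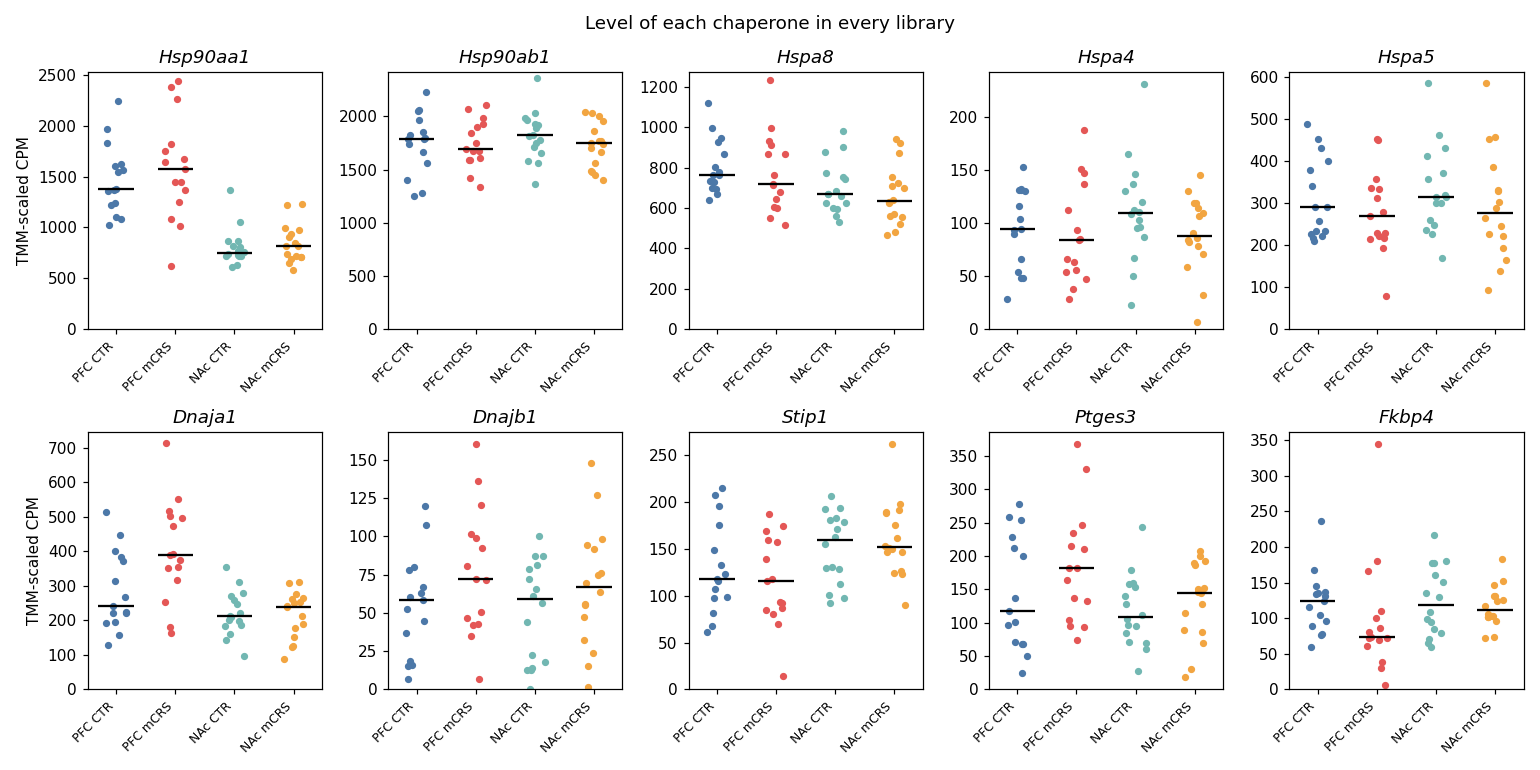
TMM-scaled CPM (vertical axis, from 0) of the 10 chaperones in each of the 62 libraries, with 1 point per library and a bar at the median of PFC CTR (n = 15), PFC mCRS (n = 15), NAc CTR (n = 16) and NAc mCRS (n = 16). Hsp90aa1 lies higher in the PFC than in the NAc, at medians of 1378 and 1572 against 749.6 and 820.3 CPM, while Hsp90ab1 has medians between 1697 and 1822 in all 4 groups.

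For both cytosolic Hsp90 genes the mCRS and CTR levels lay close together, with narrow intervals. Hsp90aa1 (chromosome 12, 110690605 to 110702728, minus strand, GRCm38) encodes the stress-inducible form. In the PFC it ran from 1029 CPM through a median of 1378 to 2244 in CTR mice, and from 618.0 through 1572 to 2439 in mCRS mice. The groups overlapped over most of their range, and the lowest and the highest libraries were both from mCRS mice. The log2 fold change was 0.11 ± 0.14 (SE, 15 against 15, adjusted p = 1), with a 95% interval of 0.892-fold to 1.30-fold. In the NAc it ran from 612.1 through 749.6 to 1371 CPM in CTR mice and from 581.4 through 820.3 to 1227 in mCRS mice. The highest NAc value was that of CTR library 07, the library with few striatal markers. Its log2 fold change was 0.07 ± 0.11 (SE, 16 against 16, adjusted p = 1) and 0.14 without that library (adjusted p = 1).

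Hsp90ab1 (chromosome 17, 45567775 to 45573271, minus strand) encodes the constitutive form. It had the smallest spread of the 10 members, with a within-group SD of 0.20 on the log2 scale. Its PFC levels ran from 1254 through a median of 1788 to 2229 CPM in CTR and from 1338 through 1697 to 2108 in mCRS mice. The log2 fold change was -0.0009 ± 0.10 (SE), so that the 95% interval held changes of 0.872-fold to 1.15-fold and no larger. In the NAc the medians were 1822 CPM in CTR (1365 to 2363) and 1746 in mCRS (1398 to 2037), a log2 fold change of -0.08 ± 0.08 (SE, adjusted p = 1).

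The Hsp70 class gave the same picture with wider errors for the rarer transcripts. Hspa8 (chromosome 9, 40800984 to 40810087, plus strand) encodes Hsc70, the constitutive Hsp70 that takes up clients first. Its PFC levels ran from 640.7 through 761.9 to 1120 CPM in CTR and from 517.8 through 719.4 to 1237 in mCRS mice, a log2 fold change of -0.06 ± 0.13 (SE). In the NAc they ran from 532.5 through 669.9 to 980.9 in CTR and from 466.6 through 634.1 to 944.0 in mCRS mice, a log2 fold change of -0.08 ± 0.12 (SE). The ranges of CTR and mCRS mice overlapped almost fully in both regions.

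Hspa4 (chromosome 11, 53259814 to 53300457, minus strand) encodes an Hsp110-type nucleotide exchange factor that releases clients from Hsp70. Its medians were 94.05 CPM in the PFC and 108.9 in the NAc of CTR mice, and 84.00 and 87.72 in mCRS mice. In NAc mCRS mice it ran from 6.440 to 145.1 CPM, with the highest within-group SD of the 4 groups, 1.05 on the log2 scale. Its log2 fold change was -0.07 ± 0.32 (SE) in the PFC and -0.31 ± 0.28 in the NAc, and the NAc interval of 0.551-fold to 1.18-fold leaves changes of that size undetectable here. Hspa5 (chromosome 2, 34771970 to 34777547, plus strand) had PFC medians of 289.8 CPM in CTR (209.1 to 487.6) and 267.9 in mCRS mice (79.49 to 451.4), and NAc medians of 314.2 (169.5 to 583.9) and 275.9 (93.18 to 586.1). The lowest library of each region was from an mCRS mouse. Its log2 fold change was -0.16 ± 0.19 (SE) in the PFC and -0.18 ± 0.18 in the NAc, and neither had an unadjusted p below 0.05.

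Dnaja1 was the 1 member with an unadjusted p below 0.05 under stress. Dnaja1 (chromosome 4, 40722150 to 40737149, plus strand) encodes a J-domain protein that loads clients onto Hsc70. In the PFC its level ran from 127.2 through a median of 242.1 to 513.2 CPM in CTR mice and from 161.8 through 389.0 to 713.8 in mCRS mice. Of the mCRS libraries, 13 of 15 lay above the CTR median and 3 above every CTR library. The log2 fold change was 0.50 ± 0.20 (SE, 1.08-fold to 1.85-fold at 95%, unadjusted p = 0.0148) and did not pass adjustment over all genes (adjusted p = 1). By p it ranked 117 among the 8916 genes. The difference was 0.79 among libraries numbered 01 to 08 (unadjusted p = 0.00346) and 0.21 among those numbered 09 and above (unadjusted p = 0.463). The labels do not say what the library numbers stand for. Here and below, the sets by number were not tested against each other. In the NAc Dnaja1 ran from 95.35 through 211.6 to 355.2 CPM in CTR and from 87.50 through 239.6 to 310.4 in mCRS mice, a log2 fold change of -0.03 ± 0.18 (SE).

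The last 608 bases of Dnaja1 overlap Smu1, a gene for a splicing factor on the opposite strand (chromosome 4, 40736542 to 40737149). The strand setting of the counting is not given in the sources used here, so reads from this stretch of the 2 genes cannot be told apart. Smu1 itself had a log2 fold change of -0.11 ± 0.37 (SE, unadjusted p = 0.763) in the PFC, with medians of 103.3 CPM in CTR and 90.14 in mCRS mice. Of the 70-base windows in the last 500 bases of Dnaja1 transcripts, 61.7% also occurred in a transcript of another annotated gene, 24.8% in Smu1 on the opposite strand and the others in processed copies that are not in the count table. This share was 66.9% for Hspa8, 21.7% for Hsp90aa1, 1% for Hsp90ab1 and 0% for the other members. Only uniquely mapped reads were counted, so levels of Dnaja1, Hspa8 and Hsp90aa1 may miss reads from windows shared with copies elsewhere. The Dnaja1 windows shared with Smu1 come from the overlap of these genes. That sharing alone gives a read no other place in the genome.

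Dnajb1 (chromosome 8, 83608193 to 83612653, plus strand) encodes Hsp40, the heat-inducible J-domain protein. It was the least counted and the most variable member, with a within-group SD of 1.41 on the log2 scale and 0 counts in NAc CTR library 02. Its PFC medians were 58.33 CPM in CTR (7.008 to 119.7) and 72.29 in mCRS mice (6.645 to 160.0), and its NAc medians 58.79 (0 to 100.1) and 66.60 (1.548 to 147.8). Its log2 fold change was 0.50 ± 0.41 (SE, unadjusted p = 0.230) in the PFC and 0.40 ± 0.43 (unadjusted p = 0.350) in the NAc. Its SE was wider than that of Dnaja1, whose PFC estimate was also 0.50, and its spread between libraries was above counting error, as given above.

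Of the 3 co-chaperones of the Hsp90 step, none had an unadjusted p below 0.05 between CTR and mCRS mice. Stip1 (chromosome 19, 7020702 to 7039967, minus strand) encodes Hop, the adaptor that bridges Hsp70 and Hsp90. Its PFC medians were 117.8 CPM in CTR (61.16 to 215.4) and 115.3 in mCRS mice (14.62 to 187.0), and its NAc medians 159.2 (92.78 to 206.4) and 151.9 (89.89 to 262.6). The log2 fold change was -0.15 ± 0.27 (SE) in the PFC and 0.09 ± 0.18 in the NAc. Ptges3 (chromosome 10, 128058954 to 128077272, plus strand) encodes p23, which holds Hsp90 in its closed state on a client. Its PFC level ran from 23.93 through 117.9 to 277.8 CPM in CTR and from 73.51 through 182.4 to 368.4 in mCRS mice, a log2 fold change of 0.36 ± 0.28 (SE, unadjusted p = 0.206). In the NAc its medians were 108.9 CPM in CTR (28.03 to 244.0) and 144.7 in mCRS mice (18.90 to 208.2), a log2 fold change of 0.16 ± 0.26 (SE).

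Fkbp4 (chromosome 6, 128429735 to 128438677, minus strand) encodes FKBP52, the immunophilin that assists steroid receptors on Hsp90. In the PFC it ran from 59.92 through a median of 124.2 to 235.9 CPM in CTR and from 6.021 through 73.25 to 344.5 in mCRS mice. The median was lower in mCRS mice and 14 of 15 CTR libraries lay above it, but the highest PFC value was also from an mCRS mouse, library 11. The log2 fold change was -0.30 ± 0.33 (SE, unadjusted p = 0.367), and -0.57 without library 11 (unadjusted p = 0.0795). It was -1.17 among libraries numbered 01 to 08 and 0.34 among those numbered 09 and above, so that its direction was not the same in the 2 sets. In the NAc the medians were 119.0 CPM in CTR (59.68 to 217.5) and 111.0 in mCRS mice (72.54 to 183.0), with a log2 fold change of -0.10 ± 0.22 (SE).

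No member passed the interaction test, which asks whether the effect of mCRS was the same in both regions. Here 0 of 10 members were called, against 0.00907% of 11025 genes, and 0 of 10 had an unadjusted p below 0.05, against 3.09%. The nearest was Dnaja1, whose mCRS effect was larger in the PFC than in the NAc by 0.52 ± 0.27 on the log2 scale (SE, unadjusted p = 0.0567, adjusted p = 1). This difference was 1.05 among libraries numbered 01 to 08 (unadjusted p = 0.00883) and -0.0067 among those numbered 09 and above (unadjusted p = 0.985). For Hsp90aa1 the same difference was 0.03 ± 0.18 and for Hsp90ab1 0.07 ± 0.12.

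**Figure D2:**
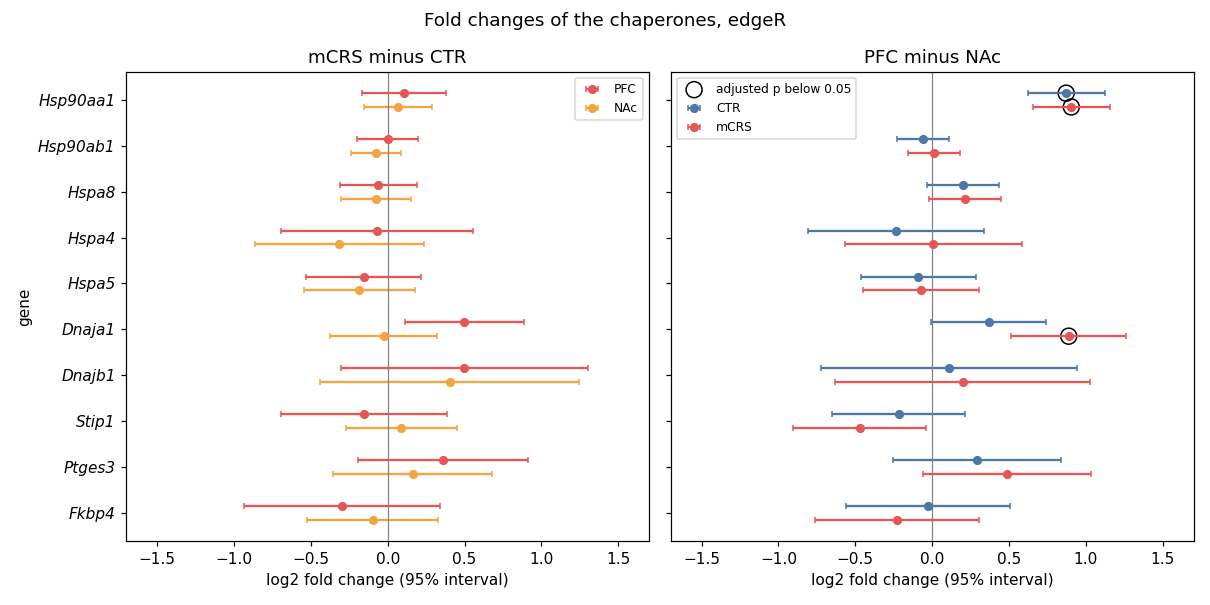
Log2 fold change with its 95% interval (horizontal axis) for the 10 chaperones, with mCRS minus CTR in the PFC and the NAc on the left and PFC minus NAc in CTR and mCRS mice on the right. Rings mark an adjusted p below 0.05 by edgeR. On the left no gene carries a ring, and Dnaja1 in the PFC (0.50) is the 1 interval that leaves out 0. On the right Hsp90aa1 is ringed at 0.87 and 0.91 and Dnaja1 at 0.89 in mCRS mice.

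The regions differed in Hsp90aa1. In CTR mice it was 1.83-fold higher in the PFC than in the NAc (log2 fold change 0.87 ± 0.13 SE, adjusted p = 1.94e-07), and 15 of 15 PFC libraries lay above the NAc median and 8 above every NAc library, or 14 when NAc CTR library 07 was left out. In mCRS mice it was 1.87-fold higher (0.91 ± 0.13 SE, adjusted p = 5.62e-08), with 14 of 15 above the NAc median and 12 above every NAc library. These 2 comparisons use separate mice but share a fit and its estimate of spread. Within each, the study took both regions from the same animals. The labels do not pair them, so the regional tests, here and for the ratio below, treat libraries as independent. In CTR mice 1 of 10 members was called, where 5.44% of all genes were, and 1 of 10 had an unadjusted p below 0.05, where 13.3% did. In mCRS mice 2 of 10 were called, against 6.49% of all genes, and 3 of 10 had an unadjusted p below 0.05, against 15.8%. Without NAc CTR library 07 and NAc mCRS library 10 the Hsp90aa1 differences were 0.95 and 0.88, and both were called.

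The paralog Hsp90ab1 was not called. It differed between PFC and NAc by -0.06 ± 0.09 (SE) in CTR and 0.01 ± 0.09 in mCRS mice, with 95% intervals of 0.855-fold to 1.08-fold and 0.897-fold to 1.13-fold. The ratio of Hsp90aa1 to Hsp90ab1 reads within a library needs no scaling between libraries, and was examined after the values were seen. It ran from 0.495 through a median of 0.851 to 1.79 in PFC CTR and from 0.436 through 0.991 to 1.27 in PFC mCRS mice. In the NAc it ran from 0.259 through 0.448 to 0.711 in CTR and from 0.332 through 0.488 to 0.607 in mCRS mice. PFC libraries thus lay mostly above NAc libraries, 11 of 15 above the highest in CTR (13 without NAc CTR library 07) and 12 of 15 in mCRS mice. The log2 ratio was higher in the PFC by 0.93 ± 0.16 (SE) in CTR and by 0.85 ± 0.14 in mCRS mice (2-sided permutation test with 100000 resamples, p = 1e-05 for each, the smallest these resamples can give, adjusted over 4 comparisons p = 2e-05). Between mCRS and CTR mice it differed by 0.06 ± 0.18 in the PFC (permutation p = 0.758) and by 0.14 ± 0.10 in the NAc (permutation p = 0.185). The NAc value was 0.19 ± 0.09 without CTR library 07 (permutation p = 0.0576, adjusted p = 0.0767).

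**Figure D3:**
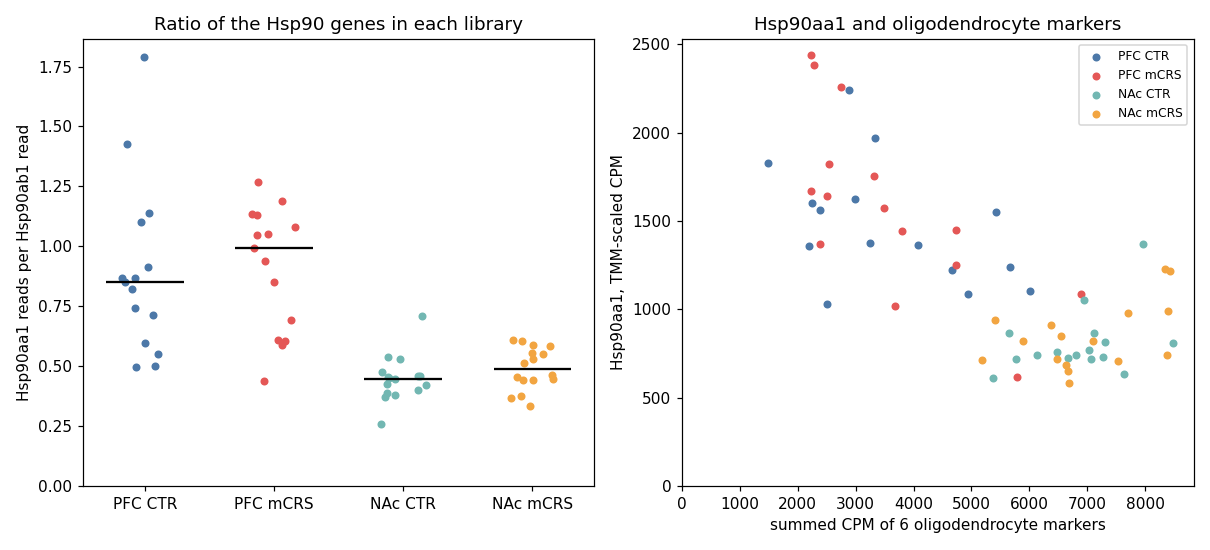
Left, Hsp90aa1 reads per Hsp90ab1 read in each library by group, with a bar at the median. Right, TMM-scaled CPM of Hsp90aa1 (vertical axis) against the summed CPM of 6 oligodendrocyte markers (horizontal axis) in each library, coloured by group. Ratios have medians of 0.851 and 0.991 in the PFC, against 0.448 and 0.488 in NAc libraries, and within the PFC mCRS group Hsp90aa1 is lower where the oligodendrocyte sum is higher.

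Oligodendrocyte markers differed between the regions as well. The 6 oligodendrocyte markers were all counted and summed to 1490 to 6010 CPM in the PFC of CTR mice and 2220 to 6900 in that of mCRS mice, against 5370 to 8490 and 5180 to 8430 in the NAc. With the log2 of this sum as a covariate, the Hsp90aa1 difference between PFC and NAc was 0.53 in CTR (adjusted p = 0.0711) and 0.53 in mCRS mice (adjusted p = 0.112), and no member was called. The same covariate took the genes called from 600 to 210 in CTR and from 715 to 172 in mCRS mice. This covariate largely follows region, since the PFC and NAc sums overlap little, and the fit gave it the same slope in all groups. Within groups, r was negative in the PFC and positive in the NAc, as given next. The adjusted differences therefore cannot separate region from the oligodendrocyte sum. Within groups, Hsp90aa1 and the oligodendrocyte sum had a Pearson r of -0.75 in PFC mCRS mice (permutation p = 0.00093, adjusted over 12 relations p = 0.0112, Spearman rho = -0.75 with permutation p = 0.00219, r = -0.63 without the 2 libraries farthest from the median sum). The r was -0.46 in PFC CTR (permutation p = 0.0886, adjusted p = 0.145), 0.38 in NAc CTR (permutation p = 0.147, adjusted p = 0.160) and 0.42 in NAc mCRS mice (permutation p = 0.1, adjusted p = 0.145). In PFC mCRS mice Hsp90aa1 was also negatively related to the striatal sum (r = -0.65, permutation p = 0.0083, adjusted p = 0.0382) and to the cortical excitatory sum (r = -0.63, permutation p = 0.00954, adjusted p = 0.0382). These relations were chosen after the values were seen, and both sides of each come from the same library. Hsp90aa1 was TMM-scaled and the marker sums were not, and r on a common scale was not computed. In bulk tissue, fewer cells of a type and less RNA per cell cannot be told apart.

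Dnaja1 was the other member called between regions, in mCRS mice. Its PFC level was 1.85-fold that of the NAc (log2 fold change 0.89 ± 0.19 SE, adjusted p = 0.000550), with 12 of 15 PFC libraries above every NAc library. In CTR mice it was 1.29-fold (0.37 ± 0.19 SE, adjusted p = 0.407), and the difference between these 2 values is the interaction given above, which did not pass. In CTR mice the regional difference was -0.07 among libraries numbered 01 to 08 and 0.82 among those numbered 09 and above. In mCRS mice it was 0.99 and 0.81 in these sets, the latter at an adjusted p of 0.0502. With the oligodendrocyte covariate it was 0.56 in mCRS mice (adjusted p = 0.417).

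Among the other members Stip1 was lower in the PFC of mCRS mice by an amount that did not pass adjustment, at a log2 fold change of -0.47 ± 0.22 (SE, unadjusted p = 0.0361, adjusted p = 0.263) and -0.22 ± 0.22 in CTR mice. Ptges3 was at 0.49 ± 0.28 (unadjusted p = 0.0846) in mCRS and 0.29 ± 0.28 in CTR mice. Hspa8 was at 0.21 ± 0.12 in mCRS and 0.20 ± 0.12 in CTR mice. The remaining 4 members, Hspa4, Hspa5, Dnajb1 and Fkbp4, had regional log2 fold changes between -0.23 and 0.20 in both conditions, with unadjusted p values of 0.400 or more.

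Other chaperone families were examined as context in lists drawn up by function. Under mCRS, 0 of 98 genes of these 7 lists tested in the PFC were called and 0 of 104 in the NAc, beside 0% and 0.00986% of all genes. Over all genes 3.50% had an unadjusted p below 0.05 in the PFC and 2.04% in the NAc, and the list counts below stand beside these shares. Of the other Hsp90 co-chaperones, which include Ahsa1, an activator of the Hsp90 ATPase, and Cdc37, the adaptor for kinases, 0 of 23 tested in the PFC and 0 of 25 in the NAc had an unadjusted p below 0.05. Their median log2 fold changes were -0.17 and -0.10. Ahsa1 was at -0.17 ± 0.54 (SE) in the PFC and Cdc37 at -0.15 ± 0.26. Fkbp5, a glucocorticoid-inducible immunophilin related to Fkbp4, was at 0.32 ± 0.99 in the PFC and 0.38 ± 0.57 in the NAc, too scarce for a narrower estimate. Its PFC median was 6.837 CPM in CTR and 2.643 in mCRS mice, lower where the estimate was higher. It had no count in 2 of 15 PFC CTR and 6 of 15 PFC mCRS libraries. Of the other cytosolic Hsp70, Hsp110, J-domain and BAG genes 0 of 29 had a higher value at an unadjusted p below 0.05 in each region. Lower values at that threshold were Dnajc5, the cysteine-string protein of synaptic vesicles, at -0.45 ± 0.21 in the PFC, and Hspa4l at -0.38 ± 0.18 in the NAc. The median log2 fold changes of this list were 0.15 in the PFC and -0.08 in the NAc. Of its tested genes 72.4% were higher in the PFC and 44.8% in the NAc, beside 49.3% of all genes in each. Hsph1 was at 0.11 ± 0.19 in the PFC and St13, the Hsc70-interacting protein, at -0.31 ± 0.22 in the NAc.

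The classic heat-inducible Hsp70 genes were near the detection limit. In the PFC Hspa1a had no count in 3 of 15 CTR and 8 of 15 mCRS libraries, and in the NAc in 6 of 16 and 4 of 16. Hspa1b had none in 3, 3, 6 and 10 libraries of these groups. For Hsf1, the heat shock factor, the log2 fold change was 0.18 ± 0.62 (SE) in the PFC and -0.41 ± 0.50 in the NAc, and 0 of 4 genes of the heat shock factor list had an unadjusted p below 0.05 in either region. Small heat shock proteins gave 0 of 2 genes tested in the PFC and 0 of 4 in the NAc. A change in Hspa1a or Hspa1b was not detectable at these counts.

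Of the 25 chaperones and folding enzymes of the ER lumen, 0 of 23 tested in the PFC had an unadjusted p below 0.05, beside 3.50% of all genes. In the NAc 1 of 25 did, beside 2.04% of all genes. It was Sel1l, an adaptor of ER-associated degradation (-0.65 ± 0.25 SE, adjusted p = 1). The median log2 fold changes of this ER list were 0.16 in the PFC and -0.04 in the NAc. Hsp90b1, the Hsp90 of the ER, was at 0.11 ± 0.18 in the PFC and -0.03 ± 0.16 in the NAc. Its partner Hspa5 was at -0.16 ± 0.19 and -0.18 ± 0.18, and neither gene had an unadjusted p below 0.05. Among TRiC and prefoldin genes, 1 of 13 had a higher and 1 of 13 a lower value at an unadjusted p below 0.05 in each region. They included Pfdn5 in the NAc (0.35 ± 0.16 SE) and Cct8 in the PFC (-2.03 ± 0.55 SE). The Cct8 value rested on PFC CTR library 01 at 14920 CPM, where no other library passed 685.6, and without it the log2 fold change was 0.49 ± 0.26 (SE), of the opposite sign. The steroid receptors Nr3c1 and Nr3c2, clients of the cycle for glucocorticoids and mineralocorticoids, were at 0.20 ± 0.26 and 0.46 ± 0.96 in PFC tissue. In NAc tissue they were at 0.04 ± 0.27 and 0.20 ± 0.62. The interaction test called 0 of 108 genes of these lists, beside 0.00907% of all genes. The smallest p in their lists were those of Cct8 (-1.65 ± 0.60 SE, or 0.87 ± 0.33 without the same library), Dnajc5 (-0.62 ± 0.25) and Sel1l (0.87 ± 0.37), at an adjusted p of 1 each.

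Between regions 6 of 108 genes of these lists were called in CTR and 6 of 108 in mCRS mice, or 5.56% in each, near the 5.44% and 6.49% of all genes. With the oligodendrocyte covariate 0 and 2 were called, and with the replicate number as a block 3 and 7. Nr3c1 was 1.73-fold in the PFC relative to the NAc in CTR mice (adjusted p = 0.0712) and 1.93-fold in mCRS mice (0.95 ± 0.27 SE, adjusted p = 0.0153, or 0.0519 without PFC mCRS library 01, its highest). Its medians were 185.7 and 200.4 CPM in the PFC, against NAc medians of 110.5 and 110.7. Dnajc6, the auxilin that uncoats clathrin vesicles with Hsc70, was higher in the PFC in CTR (0.93 ± 0.23 SE, adjusted p = 0.00373) and in mCRS mice (1.36 ± 0.23 SE, adjusted p = 6.62e-06). Tomm70a, a mitochondrial import receptor that docks Hsp90 and Hsc70, was lower in the PFC in CTR (-0.69 ± 0.19 SE, adjusted p = 0.00989) and in mCRS mice (-0.69 ± 0.19 SE, adjusted p = 0.00936). Dnaja2, a close relative of Dnaja1, was higher (0.84 ± 0.24 SE, adjusted p = 0.0153) and Dnajc5 lower (-0.63 ± 0.18 SE, adjusted p = 0.0164) in the PFC of mCRS mice. Cryab, a small heat shock protein, was lower in the PFC of CTR mice (-0.79 ± 0.25 SE, adjusted p = 0.0405), which was -0.64 ± 0.25 without NAc CTR library 02 (adjusted p = 0.144). Hsbp1, a binding partner of heat shock factor, was higher there (0.64 ± 0.18 SE, adjusted p = 0.0175). Pfdn4 was higher in CTR (1.38 ± 0.44 SE, adjusted p = 0.0454) and mCRS mice (1.51 ± 0.44 SE, adjusted p = 0.0196), and Cct8 in CTR mice (2.29 ± 0.44 SE, adjusted p = 8.03e-05). The Cct8 value again came from PFC CTR library 01, and was -0.23 ± 0.23 without it. In the ER list 0 of 25 genes were called in either condition, with Pdia6 at 0.53 ± 0.24 in CTR (adjusted p = 0.298), and Sel1l at 0.78 ± 0.26 (adjusted p = 0.0535) and Hsp90b1 at 0.48 ± 0.18 (adjusted p = 0.0938) in mCRS mice.

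**Figure D4:**
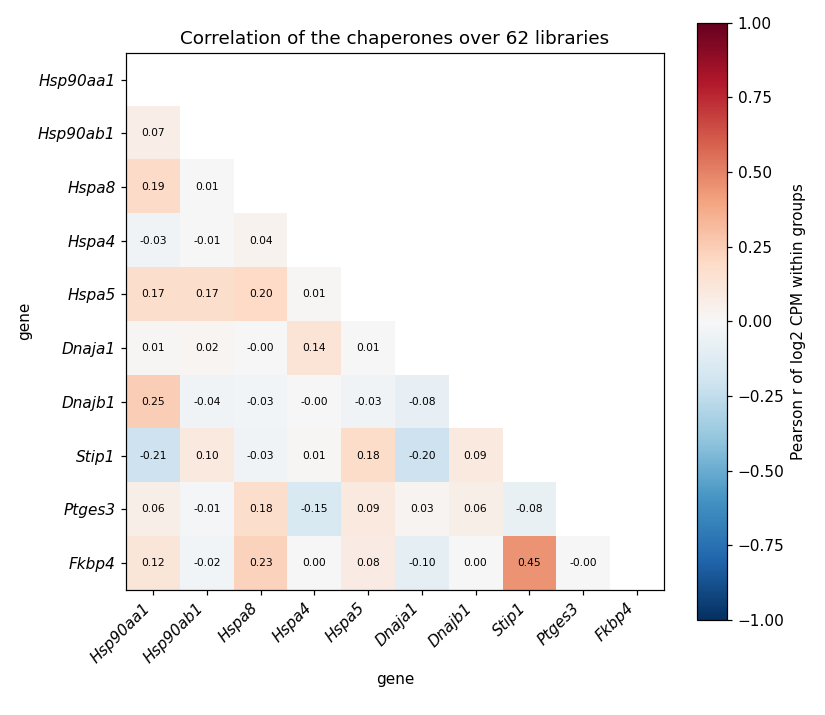
Pearson r of log2 CPM for each pair of the 10 chaperones over 62 libraries, after each gene was centred on its 4 group means. Colour runs from -1 to 1. Stip1 with Fkbp4 stands at 0.45 and the other 44 pairs lie between -0.21 and 0.25. Stip1 and Fkbp4 were both lowest in PFC mCRS library 03.

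Pooled over the 62 libraries, the chaperones hardly varied together. After centring on the group means, the 45 pairs of members had a median r of 0.01 over 62 libraries, beside a median of 0.01 for members with every other gene. The pair with the highest value was Stip1 with Fkbp4 at 0.45, and the next was Hsp90aa1 with Dnajb1 at 0.25. With the mean of the other members, r ran from -0.05 for Dnaja1 to 0.27 for Hspa5. By region this r was highest for Hspa5 in the NAc at 0.51, beside 0.04 in the PFC. Dnajb1 was at 0.32 in the PFC and -0.09 in the NAc, and these regional values were not tested. Stip1 and Fkbp4 were both lowest in PFC mCRS library 03, at 14.62 and 6.021 CPM against group medians of 115.3 and 73.25. That library detected 71.23% of the listed genes, and r without it was not computed. Of 24 relations within groups, 6 pairs in each of 4 groups, 1 passed adjustment. Hsp90aa1 and Hsp90ab1 were inversely related in PFC CTR mice, at r = -0.75 (permutation p = 0.00111, adjusted p = 0.0266, r = -0.77 without the 2 libraries farthest from the Hsp90aa1 median) and Spearman rho = -0.71 (permutation p = 0.00407, adjusted p = 0.0977). The same pair had an r of 0.43 in PFC mCRS (permutation p = 0.107), 0.18 in NAc CTR (permutation p = 0.495) and 0.48 in NAc mCRS mice (permutation p = 0.0593), and the difference between these groups was not tested. Hsp90aa1 with Stip1 had an r of 0.51 in NAc mCRS mice (permutation p = 0.0449, adjusted p = 0.475). The ER pair Hspa5 with Hsp90b1 had r values from -0.01 to 0.28 in the 4 groups.

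The genes outside the list that most resembled the members' mean standardised level over 62 libraries were Atg16l1 (r = 0.50), Marveld1, Rfxank, Dclre1c and Ndufa9 (r = 0.48). None of the 5 is a chaperone, and Rfxank and Dclre1c had median counts of 0 and 1.5. Over all 11015 other genes the median r was 0.04.

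The sequence upstream of the genes is given for what the members share that the choice did not use. Of the 10 members 7 had a promoter entry in the RefSeq table (GRCm38.p6): Hspa4, Hspa5, Dnaja1, Dnajb1, Stip1, Ptges3 and Fkbp4. The 250 bases before each start were searched on both strands for a pair of inverted heat shock units, GAANNTTC or TTCNNGAA, and for the ER stress element, CCAAT and CCACG spaced by 9 bases. A pair of units was found for Dnaja1 and Fkbp4, 2 of the 7 genes, beside 14.5% of all 27025 genes with an entry (12.8% of 32851 promoters). The ER stress element was found for Hspa5, beside 0.13% of all genes (0.113% of promoters). The RefSeq starts differ from the gene bounds given above, which come from the GENCODE annotation, and those of all 3 genes with a match lie inside these bounds. The matches began 65, 124 and 151 bases before the starts of Hspa5, Dnaja1 and Fkbp4. The 30 bases around each are shown because these are the only matches among the members, with the match in capitals.
Dnaja1, chr4:40722333-40722362, plus strand: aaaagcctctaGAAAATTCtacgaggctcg
Fkbp4, chr6:128438789-128438818, minus strand: ccgcttctctaGAAAGTTCtccgctcccgc
Hspa5, chr2:34772020-34772049, plus strand: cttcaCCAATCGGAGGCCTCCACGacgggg
No promoter of a member held 3 units in a row (the pair followed by a further unit at the same spacing), which 0.514% of all genes did (0.466% of promoters). Among the other ER genes, the ER stress element was found in 6 of 20 with an entry, Hsp90b1 among them, and in none of the 25 other Hsp90 co-chaperones. A match is a description of the letters and not a site in use.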

How the data were processed

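The members and the other lists were chosen with earlier results of these data known. Libraries were made by the BRB-seq protocol, which barcodes each RNA at its 3′ end, and no molecular identifiers were counted. Intervals cover counting error and the spread between libraries, in which mouse and preparation cannot be told apart. The authors aligned reads with STAR to GRCm38 and deposited raw counts of uniquely mapped reads per gene from HTSeq (version 0.9.1 in the submitters' processing notes, another in the study's methods). They removed PFC samples of poor sequencing quality. Gene names were matched by Ensembl identifier, and 1 identifier had no symbol.

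Counts were analysed in R 4.3.3 with edgeR 4.0.16 (filterByExpr, TMM, quasi-likelihood F test, Benjamini-Hochberg over all genes tested, threshold 0.05), with SE as the log2 fold change divided by the root of F, where the study used DESeq2. PFC and NAc were fitted separately for mCRS against CTR, and all 4 groups together for the interaction and the regional contrasts. Levels of genes are CPM with TMM, and marker sums are CPM without it. Correlations used log2 CPM of genes with a prior count of 2, the log2 of marker sums, and permutation tests with 100000 resamples. Every member was named, with fixed genes of the pathway, up to 3 called genes per list and contrast (with none called, the gene of smallest p if below 0.05 unadjusted), and the 5 genes most like the members' mean. Alternatives were DESeq2 1.42.0, RLE factors, other filters, libraries without mtDNA genes, a replicate block, the share of detected genes or 1 surrogate variable (sva 3.50.0) as a covariate, subsets by library number, and each library left out. After seeing the data, an oligodendrocyte covariate, the fits without NAc CTR 07 and NAc mCRS 10, and fits of list genes without their highest library were added. The fit was tested on simulated data. Same-numbered libraries of 2 groups correlated between -0.03 and 0.05, and those of PFC and NAc in the same condition between -0.0257 and 0.0246. No libraries known to share a mouse were at hand for reference, so these values cannot show whether the numbers pair samples.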

Additional observations from a re-analysis of the deposited data

How the results depend on the processing

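In 10 alternatives per contrast and in all fits with 1 library left out, the count of members called was 0 for mCRS against CTR in each region and for the interaction, 1 for PFC against NAc in CTR and 2 in mCRS mice, except that 1 was called in mCRS mice among libraries 09 and above, where Dnaja1 had an adjusted p of 0.0502. With the oligodendrocyte covariate, added later, 0 members were called in CTR and 0 in mCRS mice, and this covariate largely follows region. With the replicate block the counts were 0, 0, 0, 1 and 2 in the same order, so it changed no call. Whether the numbers pair samples is not known, and the block is given for completeness. All genes called for mCRS against CTR in the PFC were 0 by the test used, 5 by DESeq2 and 0 to 2 otherwise, and in the NAc 1, 0 by DESeq2 and 0 to 2 otherwise. For the interaction they were 1, and 0 to 7 over the other fits. Genes called between regions went from 600 to 213 in CTR and from 715 to 272 in mCRS mice among libraries 01 to 08, and to 380 in CTR mice among 09 and above, where fewer libraries were fitted. Of the other chaperone lists 6 genes were called in CTR mice, 3 with the block and 1 in each of both library sets, and 6 in mCRS mice, 10 by DESeq2 and 2 among libraries 01 to 08. With the oligodendrocyte covariate these were 0 and 2. Leaving out 1 library moved the regional difference of Hsp90aa1 between 0.82 and 0.95 in CTR and between 0.84 and 0.96 in mCRS mice, and that of Dnaja1 in mCRS mice between 0.80 and 0.95. The PFC stress difference of Dnaja1 stayed between 0.42 and 0.58, and was 0.51 with the block.

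Signs also turned for members that were called neither before nor after, some of them near 0 and others up to 0.52 in size (Dnaja1 interaction, 0.52 to -0.0067 among libraries 09 and above). For mCRS against CTR in the PFC, Hsp90aa1 was -0.023 with the detected share and -0.056 with a surrogate variable, and Hsp90ab1 was 0.072 and 0.053 with these, 0.0132 by DESeq2 and 0.0134 by RLE factors, 0.0071 with the block and 0.0062 with the oligodendrocyte covariate. Hspa4 was 0.090 among libraries 01 to 08, and Stip1 0.051 and Fkbp4 0.34 among 09 and above. In the NAc, Ptges3 was -0.11 and Fkbp4 0.017 among 01 to 08, Hspa4 0.061, Dnaja1 0.22 and Stip1 -0.082 among 09 and above, and Dnaja1 0.0084 without NAc CTR 07 and NAc mCRS 10. For the interaction, Hspa5 was -0.027 with the detected share and -0.026 with a surrogate variable, Hsp90aa1 -0.0057 with the latter and -0.0002 with the oligodendrocyte covariate, and Hspa8 -0.023 with the block, -0.016 among 01 to 08 and -0.0010 without a filter. Among 09 and above it was -0.0097 for Hsp90aa1, -0.27 for Hspa4, -0.13 for Hspa5, 0.13 for Stip1 and 0.59 for Fkbp4, and without the 2 NAc libraries -0.071 for Hsp90aa1 and -0.11 for Hspa5. For PFC against NAc in CTR, Fkbp4 was 0.038 with a surrogate variable, 0.055 with the block, 0.0029 with the stricter filter, 0.022 without the 2 NAc libraries and 0.028 with the oligodendrocyte covariate, which also gave Hsp90ab1 0.017, Dnajb1 -0.25, Stip1 0.13 and Ptges3 -0.24. Dnaja1 was -0.065 among 01 to 08, and Hspa4 0.16, Hspa5 0.054 and Dnajb1 -0.038 among 09 and above. In mCRS mice, Hsp90ab1 was -0.0477 by DESeq2 and -0.048 by RLE factors, Hspa4 -0.0426 and -0.0414 by these, and Hspa4 -0.0008 without a filter, -0.018 with the block and -0.0079 without the 2 NAc libraries. Among 09 and above Hsp90ab1 was -0.026, Hspa4 -0.11 and Fkbp4 0.54, and with the oligodendrocyte covariate Dnajb1 was -0.15 and Ptges3 -0.088. With TMM within the region, r was -0.012 for Hsp90aa1 with Hspa8 in NAc CTR and 0.0094 for Hspa5 with Hsp90b1 in PFC CTR mice, and 1 of 24 relations again passed. The causes were not tested.

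Leaving out 1 library also turned some signs. In the PFC Hsp90ab1 ran from -0.037 to 0.030 and Hspa4 from -0.19 to 0.0007, and in the NAc Dnaja1 from -0.074 to 0.037. The interaction ran from -0.048 to 0.084 for Hsp90aa1, -0.062 to 0.051 for Hspa8, -0.068 to 0.10 for Hspa5 and -0.029 to 0.21 for Dnajb1. The regional difference ran from -0.012 to 0.20 for Dnajb1 and -0.11 to 0.057 for Fkbp4 in CTR, and from -0.015 to 0.037 for Hsp90ab1, -0.12 to 0.070 for Hspa4 and -0.14 to 0.021 for Hspa5 in mCRS mice.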
